A study of Mus musculus with 3 samples.

Results

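NF-kB factors and a set of inflammatory genes that they are known to regulate were followed in mouse embryonic fibroblasts (MEF) treated with n-butylidenephthalide (BP), a compound found in Angelica sinensis. The set was given by name as 10 genes, with earlier results of these data known, and every probe carrying one of those names was taken. All 10 were among the 35451 gene names on the array, with 14 probes and 24 spots between them. Nfkb1, Relb, Vcam1 and Birc3 each had 2 probes and the other 6 members had 1 probe each. All 14 probes were well above background on all 3 arrays, so no member was lost to a filter on dim signals.

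NF-kB is a family of dimeric transcription factors that share a DNA-binding Rel homology domain. In resting cells the dimers are held in the cytoplasm by inhibitors of the IkB family, and cytokine or pathogen receptors release them through a kinase complex that marks IkB for degradation. Several inhibitors are themselves NF-kB targets and close a negative feedback loop, while fibroblasts are known to answer the same signal with adhesion molecules, chemokines and prostaglandin synthesis. These arrays measured RNA and not the release or nuclear entry of the factors.

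MEF are primary cells grown from the minced tissue of mid-gestation embryos, here of C57BL/6 mice. Total RNA came from MEF cultured without BP, with BP at 10 µg/ml (BP10) and with BP at 40 µg/ml (BP40), and was labeled with Cy3 and hybridized to an Agilent mouse array with 1 array per condition. The labels record no treatment for the control and the paper's text names DMSO, so whether the control carried the solvent is uncertain, and the treatment time before RNA extraction was not given in the sources used here. There were no replicates, and each ratio below therefore compares 2 arrays, with no p-value and no spread between cultures.

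The control array was scanned in another session than the BP10 and BP40 arrays, so scan session and BP cannot be told apart in a ratio against the control, whereas BP40 and BP10 shared a scan. Spots well above background made up 81.7% of 59305 gene spots in the control, against 68.3% in BP10 and 69.1% in BP40, and 0 spots were saturated. The scanner software divided the signals by a fitted surface (multiplicative detrending) on both BP arrays but not on the control array. Of 12 fibroblast markers, 12 were above background on all arrays, Col1a1, Col1a2, Fn1 and Vim among them, and their median log2 ratio was -0.64 at BP10 and -0.67 at BP40 against control. All 12 macrophage markers were also above background, with a summed level of 41.1 times the array's 75th percentile in the control, 34.9 at BP10 and 39.0 at BP40 (a sum over different probes, to which Itgam gave the largest share). Lyz2 was the 1 macrophage marker called at 2-fold, where 13.1% of all genes were called at BP10 and 13% at BP40. It was 2.14-fold higher for BP10 and 2.39-fold higher for BP40. Of the 12 macrophage markers, 6 were above and 6 below control at BP10, and 8 above and 4 below at BP40. Of 9 endothelial markers, 6 (Kdr, Flt1, Pecam1, Tek, Emcn and Cldn5) were above background on all arrays and Cdh5, Tie1 and Esam on none. Of 7 epithelial markers, 5 (Krt8, Krt18, Krt5, Krt14 and Cldn4) were above background on all arrays and Epcam and Cdh1 on none. The called markers of these 2 lists and of the fibroblast list were all lower than control. They were 2 fibroblast, 1 endothelial and 1 epithelial marker at BP10, and 3, 2 and 1 at BP40. The summed level of the endothelial list was 15.1, 12.0 and 14.3 on the control, BP10 and BP40 arrays, and that of the epithelial list was 3.06, 3.02 and 2.10. The part of such cells in the values below was not tested.

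The probes that carry the values are 60 bases long, and 4 are shown because they report the gene whose probes disagreed most (Nfkb1), the main cytoplasmic inhibitor (Nfkbia) and both adhesion molecules (Icam1 and Vcam1). They are printed as in the deposited scanner files, with no part marked by capitals.
Nfkb1, second probe: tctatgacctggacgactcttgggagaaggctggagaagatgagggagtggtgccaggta
Nfkbia: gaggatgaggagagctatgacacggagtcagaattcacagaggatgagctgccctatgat
Icam1: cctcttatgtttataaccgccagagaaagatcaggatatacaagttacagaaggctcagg
Vcam1, second probe: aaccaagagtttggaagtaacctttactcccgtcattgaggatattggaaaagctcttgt
In mm9, the build of the scanner files, the Nfkb1 probe lies at chr3:135254550-135254609 on the minus strand and the Vcam1 probe at chr3:115828953-115829012 on the minus strand. The Icam1 probe lies at chr9:20832290-20832349 on the plus strand. The Nfkbia probe spans 496 bases at chr12:56590945-56591440 on the minus strand, which is longer than the probe. The exon or UTR status of the probes was not determined, since no mm9 annotation was used here.

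NF-kB dimers bind a short DNA element, the kB motif, and RefSeq promoters (GRCm38.p6) held an entry for 7 of the members. The motif was searched on both strands over the 250 bases before each annotated start, counting overlapping matches. It was found in at least 1 promoter of 8.23% of 27025 genes and of 3 of the 7 members, namely Nfkb2, Nfkbia and Tnfaip3. Counted by promoter, it was in 7.25% of 32851 promoters and in 5 of the 10 promoters of these members. Entries for Nfkb1, Relb and Vcam1 were not used here. The promoters of both inhibitors among the members are shown because their RNA had positive ratios at both doses, and capitals mark the motif.
Nfkbia, chr12:55492648-55492897, minus strand: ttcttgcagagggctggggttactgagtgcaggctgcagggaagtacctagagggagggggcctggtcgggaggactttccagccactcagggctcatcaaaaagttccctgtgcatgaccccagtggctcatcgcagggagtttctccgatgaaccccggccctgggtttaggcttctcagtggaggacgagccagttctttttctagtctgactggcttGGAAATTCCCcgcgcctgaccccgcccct
Tnfaip3, chr10:19015411-19015660, minus strand: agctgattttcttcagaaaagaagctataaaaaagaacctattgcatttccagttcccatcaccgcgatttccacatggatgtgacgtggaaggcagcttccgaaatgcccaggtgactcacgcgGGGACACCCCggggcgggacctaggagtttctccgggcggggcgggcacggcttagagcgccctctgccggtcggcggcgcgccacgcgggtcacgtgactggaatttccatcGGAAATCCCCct
The Nfkbia match began 29 bases before the start, and the Tnfaip3 matches began 125 and 12 bases before it. Tnfaip3 has a second annotated promoter, at chr10:19011964-19012213 on the minus strand, with 0 matches, which is not shown. In the promoter of Nfkb2, which codes for p100, the first matches began 39, 38 and 11 bases before the start. A match describes letters in a window and was not tested for binding in these cells.

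A level below is the log2 signal of a probe minus the 75th percentile of its array's gene spots, and a ratio is the difference of 2 levels. A gene was called at a change of at least 2-fold (a log2 ratio of 1 or more in size) where either array of the pair showed the probe well above background. For probes printed 10 times, the SD of the log2 ratio between spots had a median of 0.10 to 0.11 against control at middle brightness (a level of -2 to 2) and of 0.40 to 0.42 at levels below -2. Between 2 probes of one gene, the median SD of the log2 ratio was 0.29 for BP10 against control, 0.22 for BP40 against control and 0.21 for BP40 against BP10. Both are technical spreads within these arrays.

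Each member was counted on the probe that stood for its gene. With each array scaled on its 75th percentile, no NF-kB factor, inhibitor or target of the set reached the threshold on that probe. At 2-fold, 0 of 10 members were called at BP10 against control, where 13.1% of all genes were called, and 0 of 10 at BP40, where 13% were called. For BP40 against BP10, 0 members and 3.95% of all genes were called, although the second probe of Nfkb1, not counted here, was at -1.51. The count depended on the scaling. When the arrays were scaled on the E1A spike-in RNA, control transcripts added to each sample during labeling, 1 member was called at BP10, 3 at BP40 and 7 for BP40 against BP10, where 11.1%, 37.1% and 25.1% of all genes were called. That scaling moved the median of all genes by -0.77 at BP40 and by -0.91 for BP40 against BP10. It rested on 7 bright spike-in probes, whose log2 ratios ran from 0.13 to 0.99 at BP40 and from 0.42 to 0.92 for BP40 against BP10. Many called genes were dim. Among the 17867 genes above background on all arrays and at least as bright as the dimmest member, 6.92%, 5.88% and 2.51% were called, so in a set of 10 a count of 0 lies near these shares. The median log2 ratio of the members was 0.08 at BP10 and -0.13 at BP40 against control, beside -0.23 and -0.11 over all genes.

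**Figure D1:**
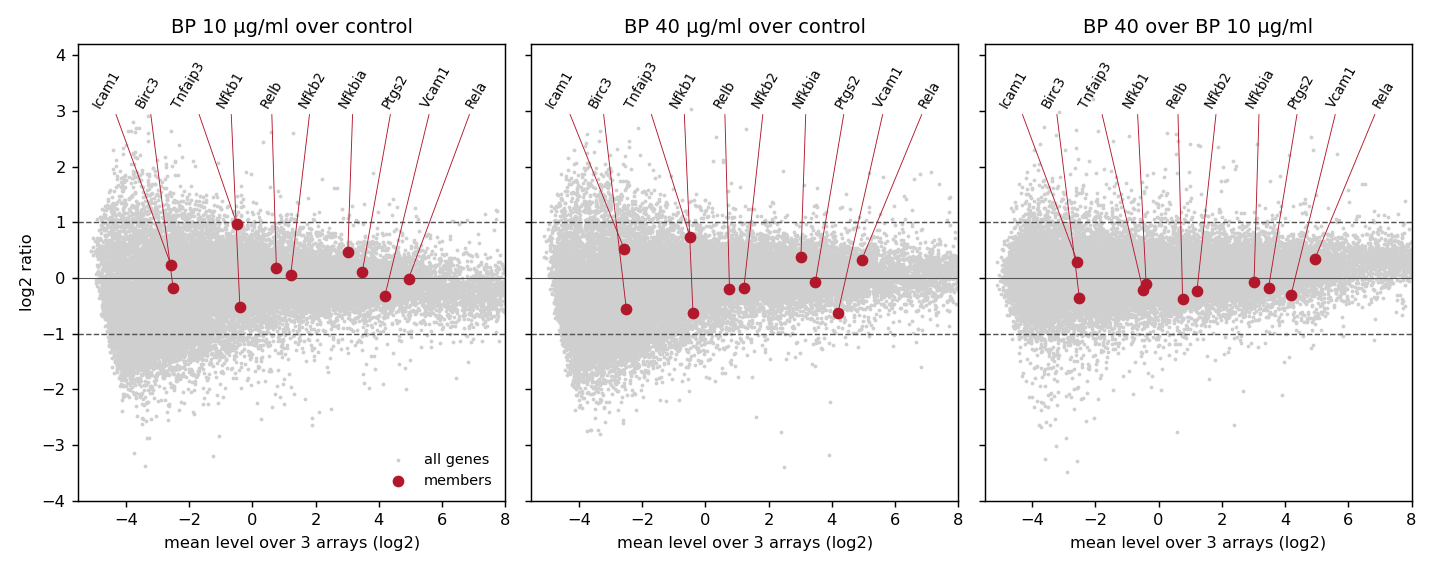
The log2 ratio of each gene above background on all arrays (grey) against its mean level over the 3 arrays, for the 3 comparisons, with the 10 members in red and dashed lines at a 2-fold change. Members are plotted on the probe that stands for the gene. Scaled on the 75th percentile, all of them lie between the dashed lines, with Tnfaip3 at 0.97 nearest to one in the BP10 comparison.

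Nfkb1 codes for p105, the precursor of the p50 subunit, and its 2 probes disagreed at BP10. The probe used for the gene (the first probe), at chr3:135247621-135247680 on the minus strand of mm9, was printed as 2 spots, with signals of 1654 and 1809 in the control, 929 and 1016 at BP10, and 779 and 782 at BP40. Both spots were highest in the control, and the log2 ratio was -0.52 for BP10 and -0.63 for BP40, or 1.54-fold lower at BP40. The second probe, whose sequence is shown above, was a single spot with a signal of 725 in the control, 998 at BP10 and 305 at BP40. Its log2 ratio was 0.78 at BP10 and -0.73 at BP40, so this spot was highest at BP10 and lowest at BP40. The drop from BP10 to BP40 was -1.51 on the second probe and -0.11 on the first. Both probes were below control at BP40 under each scaling tried, though E1A scaling could only lower the BP40 values. The sign at BP10, in contrast, depended on the probe, and the median of both probes gave 0.13.

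**Figure D2:**
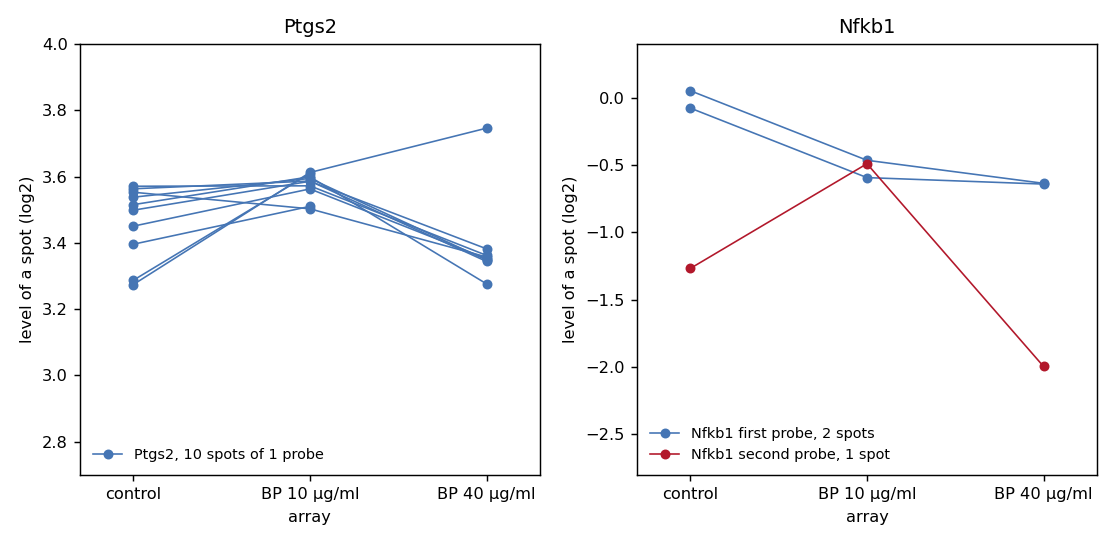
Level of single spots (log2 signal minus the array's 75th percentile) on the control, BP10 and BP40 arrays, with a line for each spot, for Ptgs2 (10 spots of 1 probe, 8 of them not flagged as outliers at BP40) and for both Nfkb1 probes. Both spots of the first Nfkb1 probe are highest in the control and the spot of the second is highest at BP10, while the Ptgs2 lines stay between 3.27 and 3.75.

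Nfkb2 codes for p100, the precursor of p52 in the noncanonical pathway. Its probe spans 140 bases at chr19:46386146-46386285 on the plus strand and had a signal of 4180 in the control, 3470 at BP10 and 2555 at BP40. After scaling, the log2 ratio was 0.05 at BP10 and -0.19 at BP40. The BP10 value turned to -0.06 where detrending was applied to every array, and both sizes were below the SD between probes of a gene.

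Rela codes for p65, the main transactivating subunit of canonical dimers. Its probe at chr19:5648070-5648129 on the plus strand gave a signal of 49905 in the control, 39705 at BP10 and 43486 at BP40. The log2 ratio was -0.01 for BP10 and 0.32 for BP40, and that of BP40 against BP10 was 0.34. Rela was thus level between control and BP10 and 1.25-fold higher for BP40, although scaling on the E1A spike-in RNA turned the BP40 value to -0.45.

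Relb, the partner of p52, was read by 2 overlapping probes that share bases and are not independent. The brighter, at chr7:20191722-20191781 on the minus strand, had a signal of 2973 in the control, 2706 at BP10 and 1798 at BP40. Its log2 ratio was 0.18 at BP10 and -0.20 at BP40, and the other probe gave 0.11 and -0.35. Both were lowest at BP40, by -0.38 and -0.46 against BP10. The second probe's BP10 value turned to -0.18 where detrending was applied to every array.

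Both inhibitors among the members stood above control at each dose, except at BP40 under scaling on the E1A spike-in RNA. The 7 further inhibitors of the wider pathway had median log2 ratios of -0.37 at BP10 and -0.03 at BP40, with 3 above and 4 below control at each dose. Nfkbia codes for IkBα, which masks the nuclear localization signal of the dimers and is resynthesized after NF-kB activation. Its signal was 11648 in the control, 12856 at BP10 and 10587 at BP40, and the levels were 2.74, 3.20 and 3.12. The control was the lowest of the 3 levels, with log2 ratios of 0.46 and 0.38, or 1.37-fold and 1.31-fold. BP40 and BP10 differed by -0.07, less than the SD between probes.

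Tnfaip3 codes for A20, a ubiquitin-editing enzyme that shuts off signaling upstream of the kinase complex. Its probe at chr10:18720776-18720835 on the minus strand gave a signal of 837 in the control, 1316 at BP10 and 975 at BP40. The levels were -1.06, -0.09 and -0.32, so the control was again the lowest. The log2 ratio of 0.97 at BP10 (1.96-fold) and of 0.74 at BP40 (1.67-fold) were the highest among the members at either dose. Of the 17867 genes above background on all arrays and at least as bright as the dimmest member, a set not matched to Tnfaip3 in brightness, 1.59% had a ratio as high at BP10 and 3.73% at BP40. On the probe that stood for each gene, Tnfaip3 was the 1 member above 1.5-fold at BP10, where 6.78% of all genes were as far up. The second probe of Nfkb1, not counted here, was 1.71-fold higher at BP10. At BP40 Tnfaip3 was again the 1 member above 1.5-fold, where 6.94% of all genes were. Quantile scaling, centring of the ratios at each brightness and E1A scaling brought the BP10 value past 2-fold, up to 1.11. E1A scaling turned the BP40 values of both inhibitors below 0, to -0.39 for Nfkbia and -0.03 for Tnfaip3. Tnfaip3 was read by a single spot of 1 probe.

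**Figure D3:**
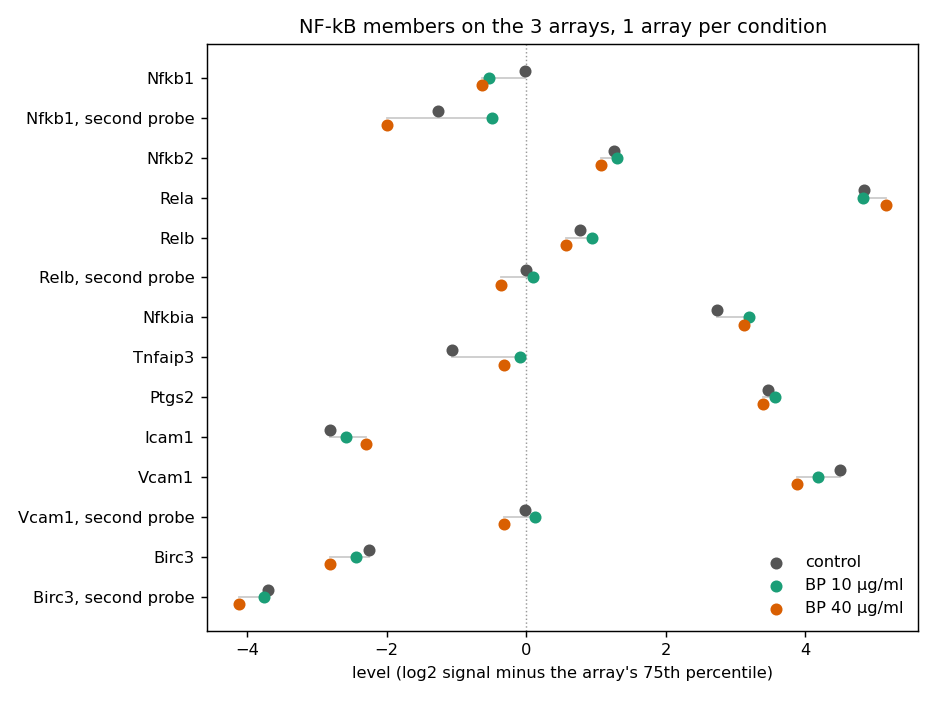
Level of each of the 14 member probes (log2 signal minus the array's 75th percentile) on the control, BP10 and BP40 arrays, 1 array per condition. The control point lies lowest for Nfkbia, Tnfaip3 and Icam1 at this scaling. It lies highest for the first probes of Nfkb1 and Vcam1 and for both probes of Birc3. Distances along the axis between different probes are not comparable levels.

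Among the targets, Ptgs2 codes for the inducible cyclooxygenase that makes prostaglandin precursors. It was printed 10 times at chr1:151954744-151954803 on the plus strand, more often than any other member probe. The median signal of the spots was 19825 in the control (16871 to 20723), 16830 at BP10 (15884 to 17139) and 12422 at BP40 (11764 to 16292), where 2 spots were flagged as outliers and left out. The levels were 3.46 ± 0.11 (SD, n = 10 spots), 3.57 ± 0.04 (SD, n = 10 spots) and 3.40 ± 0.14 (SD, n = 8 spots). The log2 ratio was 0.11 at BP10, with 9 of 10 spots higher, and -0.07 at BP40, with 1 of 8 spots higher. The 1 spot higher at BP40 stood at 0.47. The SD of the ratio between single spots was 0.13 and 0.24. For probes printed 10 times at a level of 2 or above, its median was 0.08 and 0.10. Under each alternative the BP10 value lay between 0.05 and 0.25. These spots are printings on the same arrays and do not measure the spread between cultures.

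Icam1, an adhesion molecule that binds leukocyte integrins, was dim, with a signal of 248 in the control, 233 at BP10 and 247 at BP40. The levels were -2.82, -2.59 and -2.30, so the arrays stood in the order of dose. The log2 ratio was 0.23 at BP10 and 0.52 at BP40. At this brightness the SD between spots of a probe was 0.40 and 0.42, so a step of this size was not far beyond what 1 spot can show. The BP10 value turned to -0.02 where detrending was applied to every array, and the BP40 value to -0.25 under E1A scaling.

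Vcam1, the adhesion molecule bound by the integrin VLA-4, was read by 2 probes. The first, at chr3:115813216-115813275 on the minus strand, had a signal of 39679 in the control, 25463 at BP10 and 17911 at BP40. Its levels of 4.51, 4.18 and 3.88 stood in reverse order of dose, with log2 ratios of -0.32 and -0.63 against control. The second probe, at the site shown above, had signals of 1728, 1526 and 974 and log2 ratios of 0.14 and -0.30. At BP40 both probes were below control, and at BP10 they differed in sign. Against BP10, the BP40 value was -0.30 on the first probe and -0.44 on the second.

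Birc3 codes for cIAP2, a ubiquitin ligase that protects cells from death downstream of tumor necrosis factor receptors. Its brighter probe at chr9:7854409-7854468 had a signal of 365 in the control, 258 at BP10 and 173 at BP40. The log2 ratio was -0.19 at BP10 and -0.55 at BP40, and the second probe gave -0.05 and -0.40. BP40 was the lowest array on both probes, by -0.36 and -0.35 against BP10. The BP10 value of the first probe turned positive, up to 0.09, under quantile scaling and under centring of the ratios at each brightness, and so did the BP40 value of the second probe, up to 0.10. The BP10 value of the second probe, near 0 as given, was 0.38 and 0.51 under those settings and was also positive under normexp and E1A scaling. The SD between spots at this brightness was again 0.40 to 0.42 against control.

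At a threshold of 1.5-fold, 3 members passed at BP40 against control. Tnfaip3 was higher, and Nfkb1 and Vcam1 were lower, both at -0.63, and 28.4% of all genes passed this threshold in either direction, with 21.4% down. At BP10, 28.5% of all genes passed it and 21.8% were down. For BP40 against BP10, 0 of 10 members passed it on the probe that stood for the gene, where 13.9% of all genes did. The second probe of Nfkb1, at -1.51, did pass it.

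BP40 against BP10, the pair that shared a scan, gave values of one sign for most members. The ratio was below 0 for 8 of 10 members, and Rela and Icam1 were the exceptions. The second probes of Nfkb1, Relb, Vcam1 and Birc3, further readings of the same genes, were below 0 as well. The ratios of Nfkbia, Nfkb1 (first probe) and Ptgs2 were smaller in size than the median SD of 0.21 between 2 probes of a gene. Over the 17867 genes at least as bright as the dimmest member, 36.8% had a ratio below 0, and their median was 0.11, beside -0.20 for the members. Of the 67 further pathway genes on the array, 23 were below 0 and 44 above, and all 7 further inhibitors were above 0. The values of the 8 members ran from -0.07 for Nfkbia to -0.38 for Relb and kept their sign under each scaling tried. E1A scaling moved the median of all genes by -0.91 here, so a value below 0 could only stay below 0 under it. The values of Rela and Icam1 turned below 0 under E1A scaling.

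The wider NF-kB pathway was read from 68 further genes, of which 67 were on the array and 61 were above background on all arrays. At BP10 against control 1 was called higher and 3 lower, beside 2.81% and 10.3% of all genes. At BP40 3 were called higher and 2 lower, beside 2.74% and 10.2%. For BP40 against BP10 3 were called higher and 1 lower, beside 1.88% and 2.08%. With the arrays scaled as for the levels above, the pathway genes had median log2 ratios of 0.01, 0.03 and 0.12 in these comparisons. Of the 10 receptors, 12 adaptors, 10 kinases and 7 further inhibitors, 0 were called in any comparison at that scaling. The genes called at that scaling were the factor Bcl3 and targets. Under E1A scaling, in contrast, 18 pathway genes were called at BP40 and 17 for BP40 against BP10. Of all genes called under E1A scaling, 1.79% and 1.11% were higher.

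The IkB kinase complex, which frees the dimers, stayed within 2-fold where E1A scaling was not used. Chuk (IKKα) had log2 ratios of -0.11 and 0.30 at the lower and the higher dose. Ikbkb (IKKβ) had 0.39 and 0.25. Ikbkg (NEMO), the regulatory subunit, had 0.45 and 0.58, and its other probe 0.24 and 0.33. All 3 were below 0 at BP40 under E1A scaling, and Ikbkb was at -1.05 there for BP40 against BP10.

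Rel, which codes for the lymphoid subunit c-Rel, was not above background on any array. The inhibitor Nfkbie gave -0.41 for BP10 and -0.20 for BP40. Nfkbib, another IkB, had 0.02 and 0.06 on the probe used, with other probes from -1.17 to 0.35 at BP10 and from -0.73 to 0.22 at BP40. Cyld, a deubiquitinase that opposes the pathway, had -0.37 and -0.03, and its other probe 0.62 and 0.70. For Nfkbib and Cyld the direction therefore depended on the probe.

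Cxcl5, a neutrophil-attracting chemokine, was the 1 pathway gene called lower at both doses, and none was called higher at both. Its signal was 15579 in the control, 2199 at BP10 and 4506 at BP40. The control was the highest array and BP10 the lowest, with log2 ratios of -2.51 and -1.27, and BP40 was 1.24 above BP10. All 3 ratios kept their sign under each scaling tried, although E1A scaling could only lower the ratio of BP40 against control.

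The other called genes are named after their values were seen. Cxcl1, a chemokine of the same class, gave -1.78 for BP10 and -0.81 for BP40, and Bcl3, an atypical IkB that coactivates p50 and p52 dimers, had -1.33 and -0.85. Mmp9, a secreted gelatinase, had a signal of 146 in the control, 237 at BP10 and 43.0 at BP40. Its log2 ratios were 1.01, just past the threshold, and -1.24, with opposite directions at the doses. It was dim on its 1 probe, at levels where the SD between spots was 0.40 to 0.42 against control. Cxcl10, a chemokine for T cells, had 0.24 and 1.28, and Ccl5, a chemokine for T cells and monocytes, had 0.44 and 1.12. Nos2, the inducible nitric oxide synthase, was called for BP40 against BP10, at 1.06. Ccl20 was above background at BP40 alone, with a signal of 66.2 on 1 probe. Its level there was 4.68-fold above the dimmest detected probe of the control. Against that of BP10 it was 1.83-fold higher and was not called. Just under the threshold stood Traf1, an adaptor, at -0.99 at both doses, and Ccl2, a monocyte chemokine, at 1.99-fold lower at BP40.

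**Figure D4:**
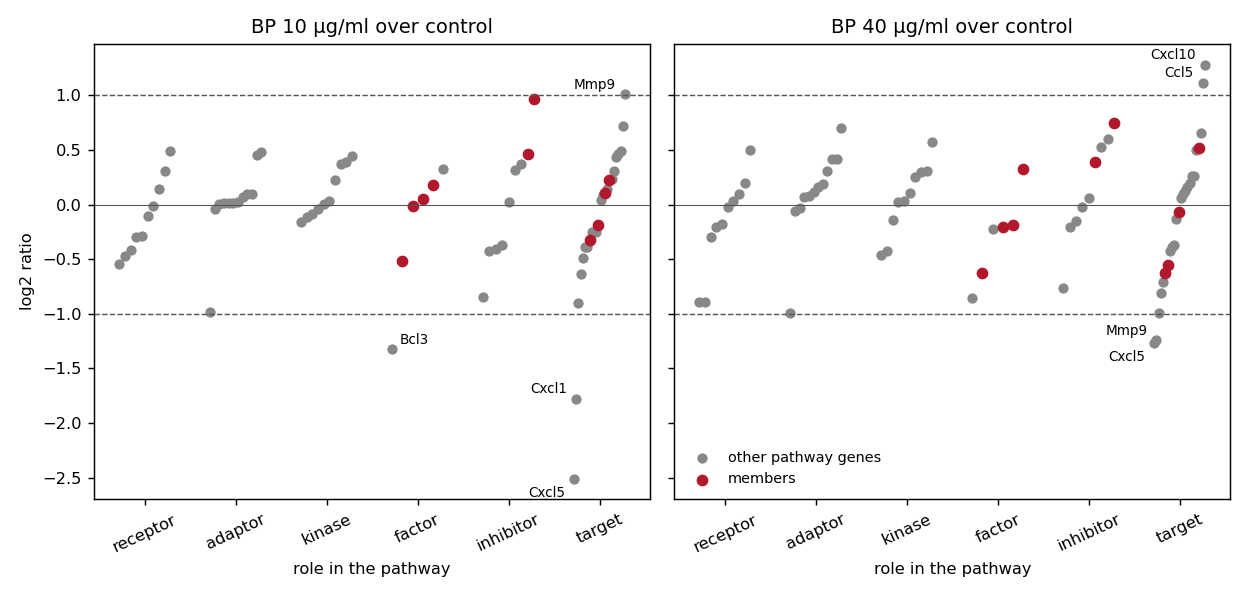
Log2 ratio against control at BP10 and BP40 for the pathway genes above background on all arrays (grey) and the 10 members (red), arranged by role, with dashed lines at a 2-fold change and called genes named. Receptors, adaptors, kinases and inhibitors lie inside the lines at both doses, and Cxcl5 lies below them at both.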

How the data were processed

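Gene expression was measured on 3 Agilent mouse arrays with 1 colour, 1 each for control, BP10 and BP40. The authors deposited scanner output from Feature Extraction 10.5.1.1. Each spot has an intensity with background subtracted and, on the BP arrays, detrended, without scaling between arrays. The deposited detrending ratio of each spot was used for an alternative. The deposited series table held the same intensity values.

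Outlier spots were left out, the 75th percentile of gene spots on each array was subtracted from log2 intensity, and spots of a probe were averaged. Of several probes, the one above background on more arrays stood for the gene, and among equals the brightest, and every member probe is given. RefSeq named 26425 of 55681 probes, and the scanner files named the others. Where a probe was above background on 1 array of a pair, the other array's value, if lower, was raised to its dimmest detected probe. The ratio is then a nominal bound, since some undetected probes had a higher signal than the dimmest detected one. The rule for named genes took all members, pathway genes called alike at both doses, and Chuk, Ikbkb, Ikbkg, Rel, Nfkbib, Nfkbie and Cyld. The members and lists were chosen with earlier results of these data known.

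No test was possible with 1 array per condition. The number of arrays limits the precision. Alternatives were 1.5-fold and 3-fold thresholds, other filters on dim probes, quantile scaling, percentiles over other probes, centring at each brightness, the median of all probes, normexp (offset 50), the series table and a stricter motif. The detrending and E1A alternatives were chosen after seeing the data. Python 3.11.15, numpy 2.4.6, pandas 2.3.3, matplotlib 3.10.9, R 4.3.3 and limma 3.58.1 were used.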

Additional observations from a re-analysis of the deposited data

Results flagged for a closer look

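The second probe of Nfkb1 moved in opposite directions at the doses, above control at BP10 and below it at BP40, and differed by -1.51 on the log2 scale between BP40 and BP10. This difference was not tested, since each dose had 1 array and the probe 1 spot. Mmp9, read by 1 dim probe (levels of -3.58, -2.57 and -4.82 on the control, BP10 and BP40 arrays), also moved in opposite directions. Its log2 ratio of BP40 against BP10 was -2.25. That difference was not tested either.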

How the results depend on the processing

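No paired analysis was possible because only 1 array stood for each condition. Of the summary values recomputed under the alternatives, 95 stayed within the tolerance and 20 moved. At 1.5-fold, 1 member was called at BP10 and 3 at BP40 against control. Pathway calls were 9 at BP10, 16 at BP40 and 14 for BP40 against BP10, where 28.5%, 28.4% and 13.9% of all genes were called. At 3-fold, pathway calls were 2, 1 and 1, where 2.89%, 3.03% and 1.25% of all genes were called. Quantile scaling and centring at each brightness each called 1 member at BP10, where they called 9.94% and 9.16% of all genes. The percentile over probes above background on all arrays, and normexp, each gave 2 pathway calls for BP40 against BP10. Of all genes they called 4.03% and 1.54% there. Without detrending on any array, 8 pathway genes were called at BP40. Scaling on the E1A spike-in RNA rested on 7 bright probes, with a median log2 ratio of 0.01, 0.80 and 0.79 in the 3 comparisons. Single spike-in probes ran from -0.58 to 0.15, from 0.13 to 0.99 and from 0.42 to 0.92. This scaling moved the median of all genes by 0.14, -0.77 and -0.91. It called 1, 3 and 7 members beside 11.1%, 37.1% and 25.1% of all genes, gave 18 pathway calls at BP40 and 17 for BP40 against BP10, and gave member medians of -0.90 and -1.12 there. Of the values of single genes, 602 stayed within the tolerance and 88 moved. The cause of these moves was not tested. With 1 array per condition, a difference between cultures cannot be told apart from one between treatments.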
